A study of Rattus norvegicus with 48 samples.

Results

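The genes described here are the 150 genes of the rat heart whose mRNA level followed that of Arntl, the gene of the clock protein BMAL1, most closely over hearts taken after abstinence. They were chosen by Pearson's r between the gene and Arntl on the log2 (normalized count + 1) scale, over the 20 libraries collected after abstinence that were not replicate 5 of their group. These libraries span both sexes and both treatments, so r holds differences between groups as well as between hearts of a group. Of the 32883 genes in the tables, 10702 had a mean normalized count of 50 or more over the 47 libraries. Arntl itself and 4 other clock genes (Clock, Npas2, Nfil3 and Cry1) were left out, so the 150 members are the top of 10697 ranked genes. The abstinence libraries therefore fixed the choice, and their values are given as a description. The day 11 libraries took part only in the mean limit of 50, and the tests below were made on them.

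BMAL1 pairs with CLOCK or NPAS2 to form the transcription factor at the head of the circadian clock, which binds E-box elements and drives the Per, Cry, Dbp and Rev-erb genes. PER and CRY proteins then block this factor, while REV-ERB proteins repress and ROR proteins activate Arntl itself. Hence Arntl, Npas2 and Nfil3 peak together in the daily cycle, and Per3, Dbp and Nr1d1 peak at the opposite time. The heart runs such a clock in its muscle cells, where it is known to set daily rhythms of fuel use and of excitability.

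The study sequenced left ventricles of Sprague Dawley rats, bred in 1 colony and 8 weeks old at the start, given a daily injection of saline or of the stimulant methamphetamine (5 mg/kg) on 10 days. Hearts were taken 24 h after the final dose, called day 11, or following 30 drug-free days, called abstinence, from females and males, which makes 8 groups. All hearts were isolated in the morning with the lights on and were flushed of blood, and the clock time of each heart is not given in the sources used here. Each group had 6 libraries in the labels, of which replicate 3 of the saline-treated females at day 11 was not analysed here. Time point, age and sequencing pool coincide, so levels were not compared between time points. In males at day 11, saline- and methamphetamine-treated rats carried rat numbers of different series, and this series cannot be told apart from the treatment.

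The total count per library was 6661581 to 11314050, with a median of 9020989. The 8 libraries labelled replicate 5 carried sex-linked genes of the other sex. Genes of the male pattern stood at 87.4 to 118% of the median of male libraries in the 4 labelled female, and at 7.45 to 11.9% in the 4 labelled male, against 0 to 2.45% in the 19 other female libraries. Replicate 5 was therefore left out of the values and tests below. Results with all libraries as labelled are given for the main counts over members and for some single genes. Of the marker genes of cardiomyocytes, fibroblasts, endothelium, blood and fat, 0 had an identifier paired with a symbol, so the tissue label could not be checked by them. In bulk tissue, fewer cells of a type and less RNA per cell cannot be told apart.

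After abstinence, the members' r with Arntl ran from 0.943 for Col5a3, a chain of fibrillar collagen V, to 0.603, with a median of 0.667, against 0.0226 over all ranked genes. The 5 last members lay at 0.606 (Med10), 0.606, 0.606, 0.604 and 0.603. The 5 genes just outside lay at 0.603, 0.602, 0.602, 0.602 and 0.601, so the limit falls on a gentle slope and not at a gap. The clock genes left out had an r of 0.919 (Nfil3), 0.911 (Npas2), 0.794 (Cry1) and 0.653 (Clock).

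Arntl varied widely between hearts of the abstinence groups that chose the members. It ran from 190 to 542 normalized counts (median 229) in 5 saline-treated females, from 91.6 to 429 (median 237) in 5 methamphetamine-treated females, from 482 to 620 (median 534) in 5 saline-treated males and from 177 to 490 (median 209) in 5 methamphetamine-treated males. Only the saline-treated males formed a narrow group. The members as a set are summarised by the median over the 150 genes of the log2 deviation from each gene's mean in the 19 day 11 libraries without replicate 5. After abstinence, the sign and size of this deviation also hold the difference between time points. Its values are therefore to be read only against others of the same time point. This median ran from -0.02 to 0.21 in the saline-treated and from -0.37 to 0.19 in the methamphetamine-treated females, and from 0.23 to 0.28 and from -0.03 to 0.22 in the males. Between group means, 135 of 150 members were lower with methamphetamine in females (median difference -0.15 on the log2 scale) and 141 in males (-0.18). Over all ranked genes the median differences were -0.01 and 0.005, and for Arntl the differences were -0.54 and -1.11. Members were chosen for following Arntl over these same libraries, so that they are lower where Arntl is lower is no evidence of its own.

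**Figure D1:**
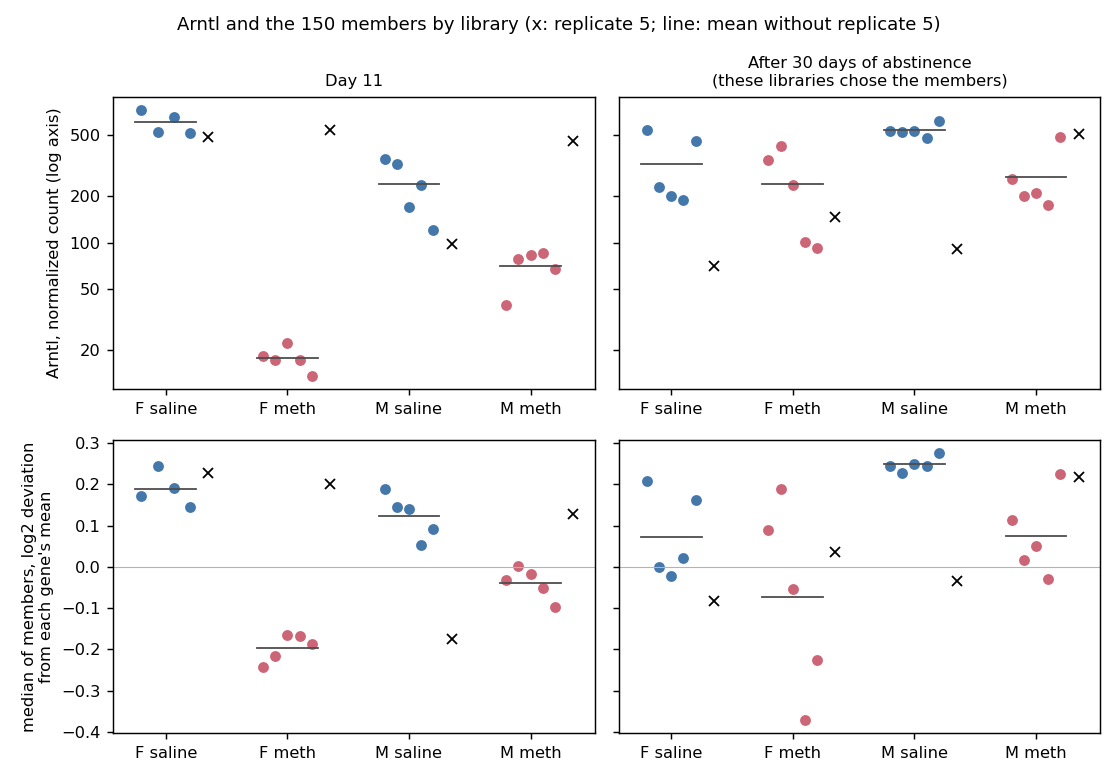
Normalized count of Arntl (upper row, log axis) and median log2 deviation of the 150 members from their mean in the day 11 libraries (lower row) in each library, by sex (F, M) and treatment (saline, blue, meth, red), at day 11 (left) and after abstinence (right). Lines are group means without replicate 5, and crosses are replicate 5, which lies at 546 counts of Arntl in methamphetamine-treated females at day 11 while the other 5 lie between 13.4 and 22.1. Levels are not to be compared between the left and right panels.

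Symbols were available for 43 of the 150 members, from the study's own tables of genes that differed in females at day 11, and 26 of these matched 1 promoter (RefSeq, GRCr8). A promoter is the window of 250 bases before to 50 after the annotated start. Sequences are printed for Arntl, itself a target of ROR and REV-ERB proteins, for Leo1 and Slc41a3, which hold an element of the clock, and for Col5a3, the first by r, which holds none. The E-box CACGTG was in 3 of the 26 windows (11.5%: Asb2, RGD1304963 and Slc41a3), against 6.42% of 33469 promoters in the table. The ROR and REV-ERB site, searched as ANTAGGTCA or ANTGGGTCA on both strands, was in 1 window (3.85%: Leo1), against 1.46%. The D-box TTATGTAA was in 0 of 26, against 0.893%. The shorter nuclear receptor element AGGTCA, which overlaps the first form of the ROR site, was in 6 (23.1%, against 16.2%), the heat shock element GAANNTTC in 2 (7.69%, against 8.59%) and the CCAAT box in 6 (23.1%, against 37.5%). The 26 windows are of genes with 1 start in the promoter table, a limit that was not set on the 33469 promoters. With 26 windows these shares are a description, and a match is not evidence of binding. In the sequences, written 5′ to 3′ on the gene's strand, capitals mark the ROR and REV-ERB site or the E-box. The first base of the capitals lies at -18 from the start in Arntl (chr1:176766078-176766377, plus strand), at -107 in Leo1 (chr8:85079786-85080085, plus) and at -199 in Slc41a3 (chr4:124684717-124685016, plus). The Col5a3 window is chr8:27625899-27626198, minus strand.
Arntl: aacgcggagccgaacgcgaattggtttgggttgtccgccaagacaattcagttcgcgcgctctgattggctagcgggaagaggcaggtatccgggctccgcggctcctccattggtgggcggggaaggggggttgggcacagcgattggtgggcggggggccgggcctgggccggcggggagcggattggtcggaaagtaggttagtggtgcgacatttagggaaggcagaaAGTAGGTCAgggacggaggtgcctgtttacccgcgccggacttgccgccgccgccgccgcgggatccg
Leo1: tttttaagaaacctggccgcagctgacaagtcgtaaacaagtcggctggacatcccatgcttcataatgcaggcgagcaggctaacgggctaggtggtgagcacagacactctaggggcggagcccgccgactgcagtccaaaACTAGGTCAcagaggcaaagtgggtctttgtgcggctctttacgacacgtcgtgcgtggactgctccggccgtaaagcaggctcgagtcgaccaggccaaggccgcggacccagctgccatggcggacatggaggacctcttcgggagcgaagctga
Slc41a3: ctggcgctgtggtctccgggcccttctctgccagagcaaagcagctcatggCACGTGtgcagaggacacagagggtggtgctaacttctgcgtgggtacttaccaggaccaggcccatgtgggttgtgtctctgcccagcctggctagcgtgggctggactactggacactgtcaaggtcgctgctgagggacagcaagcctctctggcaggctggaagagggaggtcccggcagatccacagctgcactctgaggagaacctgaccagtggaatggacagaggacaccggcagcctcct
Col5a3: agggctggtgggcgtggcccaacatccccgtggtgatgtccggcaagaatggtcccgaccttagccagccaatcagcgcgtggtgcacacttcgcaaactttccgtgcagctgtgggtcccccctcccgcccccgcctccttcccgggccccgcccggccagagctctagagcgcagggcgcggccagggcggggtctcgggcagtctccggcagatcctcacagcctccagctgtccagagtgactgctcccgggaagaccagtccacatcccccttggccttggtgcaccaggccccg

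The first comparison asked whether genes that followed Arntl after abstinence also differed between treatments right after the drug, in hearts of females at day 11. Arntl had 733, 524, 664 and 521 normalized counts in the 4 saline-treated females, and 18.2, 17.2, 22.1, 17.3 and 13.4 in the 5 methamphetamine-treated females, a 34.7-fold lower level. Of the 150 members, 88 were lower and 2 higher with methamphetamine by edgeR at an adjusted p under 0.1, where 9.43% of the 13986 genes tested were called in either direction, 5.16% lower and 4.28% higher. The members' median log2 fold change was -0.38, against -0.0001 over all genes tested. A negative value was found in 126 members, against 5127 of 10693 ranked genes tested. With each abstinence group centred on its mean before ranking, 80 of the 150 members remained, and that set had 60 lower, 2 higher and a median of -0.16 in females. Lower by 2-fold or more were 23 members, against 0.593% of all genes. In 81 members (54.0%) every methamphetamine-treated female lay below every saline-treated female, which held for 4.68% of all genes tested. As labelled, with replicate 5 kept, 69 members were lower and 2 higher (4.18% of genes called, 2.38% lower and 1.8% higher). The log2 fold change of Arntl was then -2.52 (edgeR adjusted p = 0.0853). All 43 members with a symbol were lower, but those symbols exist because the study listed them as changed in these samples, so this count is no evidence of its own. Of the 107 members without a symbol, 45 (42.1%) were lower and 2 higher.

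The largest falls in females were those of Col5a3 and Eln, both genes of the extracellular matrix. Col5a3 had 731, 794, 841 and 803 normalized counts in saline-treated females, and 153, 184, 147, 157 and 162 in methamphetamine-treated females. The groups lay far apart, with a log2 fold change of -2.30 (SE 0.07, edgeR adjusted p = 3.37e-11). Eln, which encodes elastin, had 1625, 1596, 1655 and 1449 normalized counts with saline and 342, 421, 329, 388 and 318 with methamphetamine, a 4.40-fold lower mean level (log2 fold change -2.14, SE 0.08, edgeR adjusted p = 1.75e-10). Mmp14, a protease on the cell surface that cuts collagen, went from 507, 487, 554 and 539 to 121, 153, 162, 175 and 141 normalized counts (log2 fold change -1.80, SE 0.09, edgeR adjusted p = 6.75e-09). None of the 3 genes overlapped between the groups.

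Members of other roles fell too. Slc41a3, of a family of magnesium transporters, had 1522, 1153, 1592 and 1335 normalized counts in saline-treated and 296, 337, 327, 332 and 321 in methamphetamine-treated females (log2 fold change -2.12, SE 0.09, edgeR adjusted p = 4.42e-10). Cdkn1a, an inhibitor of cyclin-dependent kinases that halts the cell cycle, had 581, 567, 713 and 473 against 143, 158, 131, 250 and 105 (log2 fold change -1.89, SE 0.18, edgeR adjusted p = 9.14e-06). Ucp3, a mitochondrial carrier of muscle that is induced when fatty acids are burned, had 460, 349, 282 and 325 against 108, 97.5, 103, 167 and 103 (log2 fold change -1.62, SE 0.16, edgeR adjusted p = 1.22e-05). In each of these the lowest saline-treated female was above the highest methamphetamine-treated female. ENSRNOG00000022268, which has no symbol here, fell from 185, 159, 144 and 178 to 51.8, 41.4, 49.6, 45.2 and 51.4 normalized counts (log2 fold change -1.80). Both identifiers named Fcgr2a, the low-affinity receptor for IgG on myeloid cells, also fell, by 1.96 (ENSRNOG00000049422) and by 1.79 (ENSRNOG00000046663) on the log2 scale. Near-identical gene copies can split reads, so their separate values are uncertain. Of leukocyte markers, Ptprc alone had a paired identifier, and its log2 fold change in females was 0.02, which did not pass the test. Of the markers of atrial muscle, Myl4 alone had one. It stood at 810, 332, 123 and 52.2 normalized counts in saline-treated females and at 49.9, 40.6, 26.6, 35.3 and 30.1 in methamphetamine-treated females (log2 fold change -3.18, edgeR adjusted p = 0.00419), and its log2 fold change of -0.28 in males did not pass the test. Myl4 thus varied widely among saline-treated females. The part of a change in cell makeup in the members' fall was not tested.

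**Figure D2:**
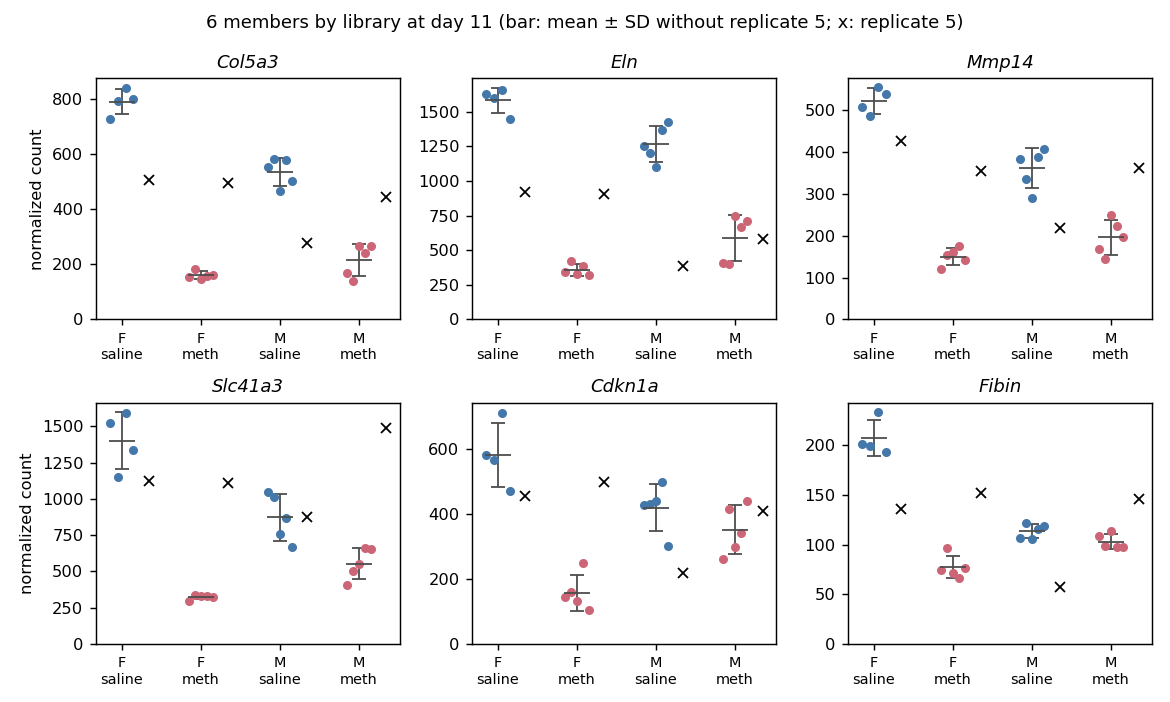
Normalized counts of 6 members at day 11 in each library, by sex and treatment, with the mean and SD of the libraries other than replicate 5 (bars) and replicate 5 as crosses. The saline- and methamphetamine-treated females do not overlap in any of the 6, and Fibin lies at 106 to 122 in saline-treated and 97.4 to 114 in methamphetamine-treated males.

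The other members among the 10 highest by r fell by less than Col5a3, Eln and Cdkn1a. Ckap4, an endoplasmic reticulum membrane protein that is second by r at 0.911, had 661, 552, 697 and 599 normalized counts in saline-treated and 321, 358, 332, 358 and 386 in methamphetamine-treated females (log2 fold change -0.84, SE 0.08, edgeR adjusted p = 5.57e-06). Medag, a gene that favours fat cell formation, had 417, 462, 390 and 404 against 166, 162, 147, 154 and 150 (log2 fold change -1.43). Fibin, a secreted protein, had 202, 200, 234 and 194 against 74.8, 96.7, 71.7, 66.6 and 76.7 (log2 fold change -1.42). The third by r, ENSRNOG00000018494, fell less, with 1182, 1232, 1519 and 1388 against 888, 1074, 947, 1135 and 896 normalized counts (log2 fold change -0.43, edgeR adjusted p = 0.00705). Each of the 10 members highest by r was lower in females. As labelled, with replicate 5 kept, 8 of these passed the test, and ENSRNOG00000018494 (edgeR adjusted p = 0.298) and ENSRNOG00000014718 (0.117) did not.

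The other members with a symbol fell by 1.62 to 0.33 on the log2 scale in females. They include Smad3 (-0.58), which carries signals of TGF-beta receptors to the nucleus, Pdgfrb (-0.33), a growth factor receptor of pericytes and fibroblasts, and Sphk2 (-0.54), a sphingosine kinase. They also include Cx3cl1 (-0.63), a chemokine bound to endothelium, Rhoj (-0.81), a small GTPase of endothelial cells, and Asb2 (-0.63), a ubiquitin ligase subunit of muscle. The 2 members that were higher in females had no symbol. ENSRNOG00000013484 had 303, 327, 286 and 250 normalized counts with saline and 389, 468, 392, 474 and 397 with methamphetamine (log2 fold change 0.54, edgeR adjusted p = 0.0016). ENSRNOG00000045637 was 1.13-fold higher, at an edgeR adjusted p of 0.053.

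In males at day 11, the same comparison gave smaller falls in fewer members. Arntl had 353, 325, 170, 237 and 122 normalized counts in the 5 saline-treated males and 39.3, 77.6, 83.0, 85.8 and 67.3 in the 5 methamphetamine-treated males, a 3.40-fold lower level. By edgeR, 31 members were lower and 1 higher, where 6.54% of 13887 genes were called, 3.17% lower and 3.37% higher. The median log2 fold change of the members was -0.15, against -0.02 over all genes tested. Negative values were found in 116 members, against 5407 of 10696 ranked genes tested. Lower by 2-fold or more were 4 members, against 0.259% of all genes. Every methamphetamine-treated male lay below every saline-treated male in 24 members (16.0%), against 3.37% of all genes. With all libraries as labelled, edgeR called 0 members (0.0% of genes), the lowest adjusted p among them being 0.18. By the same edgeR fit, 34 of 150 members were at an unadjusted p under 0.05, against 2020 of 13753 genes. DESeq2 on these libraries called 5 members (1.09% of genes). The log2 fold change of Arntl was then -0.70 (edgeR adjusted p = 0.492). The count in males also rests on single libraries, since it was 15, 13, 14 and 17 without methamphetamine-treated male replicate 1, 2, 4 and 6, respectively. Of the 107 members without a symbol, 14 were lower and 1 higher in males.

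Col5a3 and Eln also had the largest falls in males. Col5a3 had 554, 582, 466, 581 and 505 normalized counts with saline and 169, 139, 266, 240 and 267 with methamphetamine (log2 fold change -1.32, SE 0.16, edgeR adjusted p = 0.00408). Eln had 1253, 1201, 1098, 1368 and 1426 against 410, 401, 744, 664 and 710 (log2 fold change -1.12, SE 0.16, edgeR adjusted p = 0.013). Neither gene overlapped between the groups, although methamphetamine-treated males were more scattered than the females. Mmp14 was 1.85-fold lower (384, 336, 291, 388 and 408 against 168, 144, 249, 223 and 196 normalized counts, edgeR adjusted p = 0.013). Btnl9, a butyrophilin-like membrane protein, had 294, 287, 301, 275 and 381 against 193, 172, 184, 175 and 174 (log2 fold change -0.78, edgeR adjusted p = 0.00408). With replicate 5 kept, Col5a3, Eln, Mmp14 and Btnl9 did not pass the test in males (edgeR adjusted p = 0.205, 0.223, 0.274 and 0.205). ENSRNOG00000021474, without a symbol, fell by 1.06 on the log2 scale in males and by 1.15 in females. ENSRNOG00000013585 was the 1 member higher in males (log2 fold change 0.37, edgeR adjusted p = 0.0842), and its log2 fold change in females was -0.32, at an edgeR adjusted p of 0.106.

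Both sexes shared 28 of the members that were lower, while 60 were lower in females and not called in males, 3 were lower in males and not called in females, and 56 were called in neither sex. Over the 13761 genes tested in both, these shares were 1.12%, 4.09%, 2.01% and 86.0%. With replicate 5 kept, edgeR called 0 members in males, so the sexes shared none. Of the 88 members lower in females, 78 had a negative log2 fold change in males, against 5407 of 10696 ranked genes tested. The median of the 28 shared members was -1.01 on the log2 scale for females and -0.65 for males. Besides the genes above, Prr13 (-0.85 in females, -0.48 in males), RGD1564664 (-1.52, -0.79), ENSRNOG00000008738 (-0.96, -0.79) and ENSRNOG00000000579 (-0.63, -0.51) were among those lower in both. Across the 150 genes, which are not independent replicates, the log2 fold changes of the sexes had a Pearson r of 0.734, against 0.401 over the 13761 genes tested in both.

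**Figure D3:**
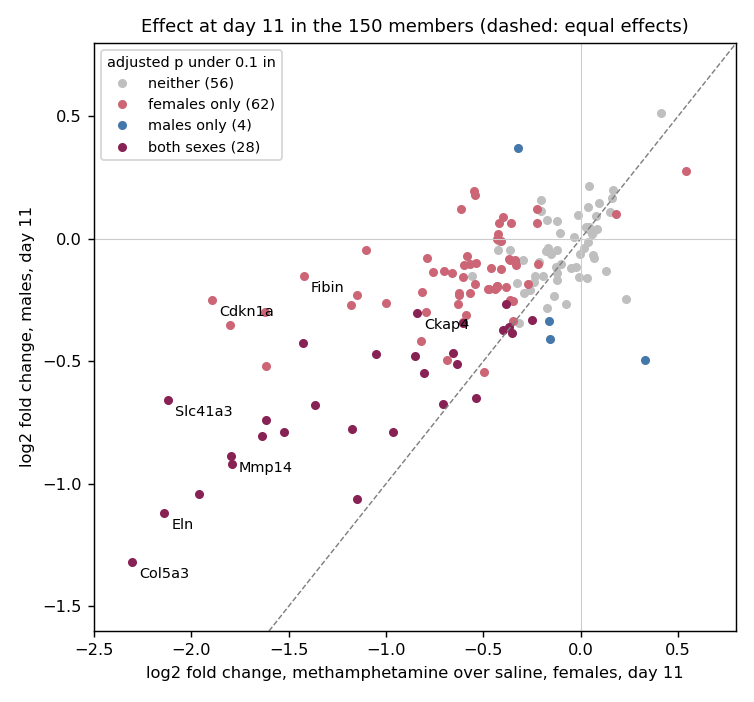
Log2 fold change of methamphetamine over saline at day 11 in females (horizontal) and males (vertical) for each of the 150 members, coloured by where edgeR called it, with equal effects on the dashed line. Most points lie left of the line, with Col5a3 and Eln farthest out in both sexes and Cdkn1a and Fibin low in females and near 0 in males.

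The difference of the effect between the sexes was tested by itself over the 4 groups at day 11. It was called in 23 of 150 members, all with the lower value in females, where 0.795% of 14343 genes were called in either direction and 0.467% with the lower value in females. As labelled, with replicate 5 kept, 2 members were called (0.119% of genes, 0.035% lower in females). The log2 fold change in females, called or not, was below that in males in 120 of 150 members, against 5303 of 10697 ranked genes. The smallest p belonged to Fibin, whose female minus male difference was -1.28 on the log2 scale (SE 0.13, edgeR adjusted p = 4.34e-05). Its level in males was 107, 122, 106, 116 and 119 normalized counts with saline and 109, 98.1, 114, 97.4 and 97.7 with methamphetamine, and these groups overlap. Slc41a3 followed with -1.47 (SE 0.19, edgeR adjusted p = 0.000237), and in males it went from 1050, 1011, 758, 870 and 669 to 404, 499, 548, 659 and 653 normalized counts. The male groups nearly touch, at 669 for the lowest saline-treated and 659 for the highest methamphetamine-treated male. Cdkn1a had the widest difference, -1.65 (SE 0.26, edgeR adjusted p = 0.00326), and in males its groups overlapped at 427, 431, 440, 499 and 301 against 262, 417, 298, 343 and 442 normalized counts. Sash1, a scaffold protein of cell adhesion, differed by -0.57, with -0.70 in females and -0.13 in males. Of the 23 members, 6 were lower in both sexes, so for these the 2 effects differed in size and not in direction. The male effect also holds the different series of rat numbers, so the difference between the sexes cannot be told apart from that series. Saline-treated females also had a higher Arntl level than saline-treated males (1.43 higher in the mean on the log2 scale), whereas the median difference of the members between these groups was 0.03. Rat numbers of these 2 groups are of different series as well, and the clock time of each heart is not given. Sex cannot be told apart from these here.

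The closer a gene followed Arntl after abstinence, the more often it was lower at day 11. In females, 42 of the members ranked 1 to 50 were lower (84.0%), 28 of those ranked 51 to 100 (56.0%) and 18 of those ranked 101 to 150 (36.0%). Beyond the limit, 31 of the genes ranked 151 to 300 (20.7%) and 99 of the 700 genes ranked 301 to 1000 (14.1%) were lower, against 5.55% of all ranked genes. In males the same steps were 16 (32.0%), 9 (18.0%), 6 (12.0%), 13 (8.67%) and 51 (7.29%), against 3.13%. With replicate 5 kept, the 3 steps of members were 36 (72.0%), 22 (44.0%) and 11 (22.0%) in females, followed by 8.67% and 6.57% of the genes of the next 2 steps and 2.59% of all ranked genes, and in males 0 genes were lower at any step.

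**Figure D4:**
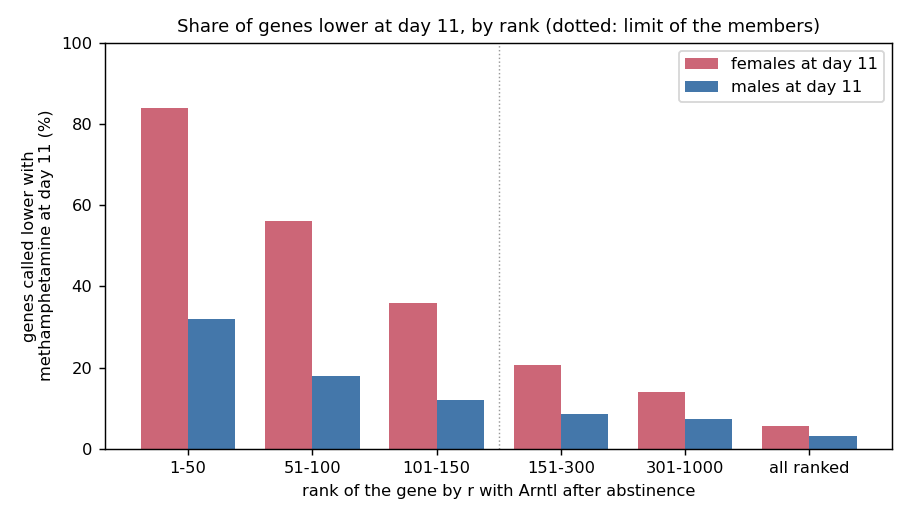
Share of genes called lower with methamphetamine at day 11 (edgeR, adjusted p under 0.1), by rank of r with Arntl after abstinence, in females (red) and males (blue), with the dotted line at the limit of 150 members. The bars fall from 84.0% to 5.55% in females and from 32.0% to 3.13% in males.

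A further test asked whether members followed Arntl from heart to heart at day 11 once the mean of each of the 4 groups was taken out. In the 19 libraries, edgeR called 0 members, and 0.0% of 14342 genes, for a slope on Arntl. The lowest adjusted p was 0.315, and 17 of 150 members were at an unadjusted p under 0.05, against 807 of 14342 genes. The partners of BMAL1, Npas2 (edgeR adjusted p = 0.537) and Clock (0.465), were not called either. With few hearts per group, and Arntl at only 13.4 to 22.1 counts in methamphetamine-treated females, the test cannot decide whether members follow Arntl within groups. The lowest p was that of Slc41a3, with a slope of 0.43 log2 units per log2 unit of Arntl (SE 0.08). DESeq2 called it (adjusted p = 0.000873), as 1 of 17 genes (0.176%). edgeR called it without methamphetamine-treated male replicate 6 (adjusted p = 0.0709). With replicate 5 kept, 47 members had a positive slope by edgeR (1.26% of genes called, 0.735% with a positive slope), and in this setting replicate 5 of both methamphetamine-treated groups lies far above its group in Arntl. With the treatment difference left in and 1 mean taken out per sex, 89 members had a positive and 3 a negative slope (9.07% of genes called).

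The 4 replicate 5 libraries of each time point did not choose the members. At day 11, the replicate 5 labelled methamphetamine-treated female had 546 normalized counts of Arntl and a member median of 0.20, near the saline-treated females at 0.15 to 0.24, and the replicate 5 labelled methamphetamine-treated male had 459 and 0.13. The one labelled saline-treated male had 97.1 counts of Arntl and a member median of -0.17, below all 5 other saline-treated males at 0.05 to 0.19. The one labelled saline-treated female had 490 and 0.23. After abstinence, the libraries with 70.4, 90.3, 147 and 514 counts of Arntl had member medians of -0.08, -0.03, 0.04 and 0.22, in the same order. What separates replicate 5 from the other libraries was not tested.

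The lists of clock and other genes put the members in context. Because symbols come mostly from the study's tables of genes changed in these samples, the counts over lists are no independent evidence of direction. The calls in males given here are without replicate 5. With all libraries as labelled, edgeR called 0 of 13753 genes in males. Of 14 matched identifiers of matrix and adhesion genes, 3 are members (Col5a3, Eln and Mmp14), and 13 were lower and 1 higher in females, and 8 lower and 0 higher in males. Of the clock activators, Npas2, the partner of BMAL1, was lower in both sexes (log2 fold change -3.01 in females), and Clock was 2.04-fold lower in females. Of 4 matched clock repressors, 3 were higher in each sex, with Per3 at the last rank of all 10697 genes (r = -0.963) and 10.9-fold higher in females. Cry1 had an r of 0.794 with Arntl after abstinence, and its log2 fold change at day 11 in females was -0.02, which did not pass the test. Dbp and Tef, transcription factors that act on D-boxes, were 12.7-fold and 4.48-fold higher in females. The single members in other lists were Cdkn1a (3 matched genes of the glucocorticoid response, 1 lower and 2 higher in females), Ucp3 (7 of fuel use, 2 lower and 5 higher), Slc41a3 (2 of transport, both lower) and Pdgfrb (1 matched pericyte marker, lower).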

How the data were processed

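mRNA of 48 left ventricles was sequenced from stranded libraries, 47 of which were analysed here. Per the labels and the paper, the authors trimmed reads (Trimmomatic 0.38), aligned them to Rnor_6.0 (HISAT2 2.1.0) and counted them on Ensembl genes with GenomicAlignments. The strand setting and the handling of reads that fit several genes are not given in the sources used here. The authors deposited raw counts per gene, and a normalized signal. In each library the ratio of count to signal was checked to be constant, so the signal is a scaled count, and it is called a normalized count here. No column went unmapped.

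The members were ranked on the normalized counts with a pseudocount of 1. All tests used the raw counts with edgeR 4.0.16 in R 4.3.3 (quasi-likelihood, TMM, default filterByExpr), fitted over all genes, with Benjamini-Hochberg adjusted p under 0.1, the authors' threshold. Replicate 5 was left out of every group, and the fit with all libraries as labelled was an alternative. The comparisons were methamphetamine against saline at day 11 in each sex, the difference of these effects between the sexes, and the slope on Arntl (log2 CPM, prior count 2) with 1 mean per group. Alternatives used DESeq2 1.42.0, limma 3.58.1 (voom, or log2 normalized counts with a pseudocount of 1 or 0.1), RLE factors, other count filters, a replicate block, a single fit, other member rules and each library left out in turn. DESeq2 with all libraries as labelled was added after the data were seen. The fits were tested on simulated data.

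Named members were the 10 highest by r, the 10 with the smallest p among those called in both sexes, the 4 largest falls and rises in each sex, those at the limit of the rule, up to 5 with the smallest p of the slope and of the sex difference, and those in the gene lists. The other members named in the text were chosen for their known roles after their values were seen. The members and lists were chosen with earlier results of these data known. The values of 1 member are not reported here. Symbols came from the study's tables (328 genes), whose comparison values were not used. Promoters came from RefSeq (GRCr8), matched by symbol or synonym. Counting error limits low genes, and p-values measure the spread between rats taken as independent. Per the paper, each litter was spread over all groups and the rats were housed in pairs. The sample labels give neither litter nor cage, so no fit took them into account.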

Additional observations from a re-analysis of the deposited data

Results flagged for a closer look

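In 88 groups of 5 or 6 libraries (Arntl, 9 members and the member median in each of the 8 groups, replicate 5 kept), 29 held a library far from the others by Dixon's criterion, and 28 of these were replicate 5. Chance gives about 1 in 20 for a single group. The 88 are not independent, since they hold correlated genes in the same libraries, so this rate is no measure for their count. At day 11, replicate 5 of the methamphetamine-treated females lay above its group in Arntl (546.4 normalized counts), Col5a3 (495.3), Eln (906.9), Mmp14 (355.9), Slc41a3 (1112), Cdkn1a (499.9), Medag (331.7), Fibin (152.4), Ckap4 (587.3) and the member median (0.2005). Replicate 5 of the methamphetamine-treated males lay above its group in Arntl (459.4), Slc41a3 (1486), Fibin (145.5) and Ckap4 (549.1). Replicate 5 of the saline-treated males lay below its group in Eln (387.5), Fibin (57.67) and the member median (-0.1745), and that of the saline-treated females in Eln (921.3). After abstinence, replicate 5 of the saline-treated males was lowest in Arntl (90.29), Col5a3 (237.8), Eln (468.5), Slc41a3 (449.4), Cdkn1a (192.6), Medag (169.5), Ckap4 (469.5) and the member median (-0.0342), and that of the methamphetamine-treated males was highest in Col5a3 (796.3) and Eln (2301). The other library was replicate 2 of the methamphetamine-treated females after abstinence, at 340.1 normalized counts of Medag.

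The effect of methamphetamine at day 11 differed between the sexes in 23 members by edgeR's test of the difference, with the lower value in females in each. In males the treatments carried rat numbers of different series, so this difference cannot be told apart from the series. On the log2 scale, the female minus male differences of 22 of them were -1.276 for Fibin, -1.469 for Slc41a3, -1.008 for Medag, -1.458 for ENSRNOG00000022268, -0.5741 for Sash1, -1.648 for Cdkn1a, -0.6249 for Leo1, -0.9893 for Col5a3, -0.9143 for Mmp14 and -1.025 for Eln. They were -0.6015 for Fam220a, -1.327 for LOC100362819, -0.4966 for Daam1, -0.5436 for Ckap4, -0.6981 for ENSRNOG00000013585, -0.7478 for RGD1304963, -1.061 for ENSRNOG00000005447, -0.9136 for ENSRNOG00000025624, -0.716 for Adam19, -0.349 for ENSRNOG00000006859, -0.517 for Smad3 and -0.4506 for ENSRNOG00000047860.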

How the results depend on the processing

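Of 90 called results of named genes, all 90 kept their direction in the alternatives run and 44 also kept their call in each. For the counts and medians over members, no alternative turned a direction. With all libraries as labelled, the median log2 fold change was -0.3194 in females and -0.088 in males, and the members called were 0 in males, 2 for the sex difference and 47 for the slope. DESeq2 on the same libraries gave medians of -0.3137 and -0.0826 and called 5, 4 and 51, respectively. At an adjusted p under 0.05, 16 members were called in males. limma voom called 35 for the sex difference. For the slope on Arntl, DESeq2 called 1 member and a fit with 1 mean per sex called 92, which by construction keeps the treatment difference. The replicate numbers were no evidence of pairing (r of the deviations -0.0978 to 0.125 over 9 pairs, 1 of them over 0.1). The fit with the replicate block called 85 members in females, 39 in males, 17 for the sex difference and 1 for the slope. For the slope, this fit called 10 of 14342 genes. The share of all genes is not given for its other counts or for that of limma voom. Those counts therefore cannot be told apart from a change in calling over all genes.

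Ranking by all 24 abstinence libraries kept 92 of the 150 members and gave medians of -0.465 in females and -0.216 in males. Centring each abstinence group on its mean kept 80 and gave a median of -0.1639 in females. With 75 members, 55 were called in females, with medians of -0.607 and -0.2283, and with 300 members the median in females was -0.1992. Fewer or more members change a count by construction, and the cause of the other shifts was not tested.

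Leaving out 1 library at a time gave 86 to 92 members called in females (median -0.3985 to -0.3615), 13 to 44 in males (median -0.1792 to -0.1355), 15 to 29 for the sex difference (15 without saline-treated female replicate 1) and 0 to 1 for the slope. Leaving out 1 of the 20 libraries that chose the members kept 108 to 141 of them. The count in males was the least stable, and low genes near 20 counts are limited by depth.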
